A study of Mus musculus with 6 samples.

Results

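Pmaip1 and its relatives of the Bcl2 family set the mitochondrial threshold for cell death, and their transcripts were followed here in activated CD4 T cells with and without the microRNA miR-155. The genes were Pmaip1, Bcl2l11, Bbc3, Bid and Bad, Bcl2, Bcl2l1 and Mcl1, and Bax and Bak1, and every probe set whose platform annotation gave 1 of these symbols alone was taken. This gave 24 probe sets of 9 genes, out of 20380 probe sets of 12393 genes with a single symbol, and no probe set was listed under Bax, whose transcript was not analysed here. All 9 genes passed the filter on dim genes and were among the 9295 genes tested.

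The miR-155 KO group was 3 arrays and the WT group 3 arrays, each described as cells from its own mouse, of strain C57BL/6 in both genotypes. The CD4 T cells came from spleen and lymph nodes, were isolated with magnetic beads against CD4, and were activated in both groups for 3 days in medium that held 1 µg/mL of CD3 and CD28 antibodies and 20 U/mL of interleukin 2. Biotin-labelled RNA was hybridised to Affymetrix arrays, and values are RMA log2 expression, so that a difference of 1 is a doubling. The sources used here give neither the age of the mice nor the part of the locus that was removed.

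Proteins of the Bcl2 family decide whether the outer membrane of mitochondria is opened, which releases cytochrome c and starts the caspases. Bcl2, Bcl-xL (from Bcl2l1) and Mcl-1 keep the membrane closed, Bax and Bak form the pores, and the BH3-only proteins, among them Noxa (from Pmaip1), Bim (from Bcl2l11), Puma (from Bbc3), Bid and Bad, are the sensors that bind and block the protective members or activate the pore formers. Noxa binds chiefly Mcl-1, whereas Bim binds all the protective members, and in T cells Bim is a main driver of death after an immune response. Mature miR-155 acts by base pairing between its seed and messenger RNAs, which lowers their level or translation.

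Both strands made from the Mir155 hairpin are shown because they are what the KO cells are meant to lack. Their sequences are from RefSeq (GRCm38.p6), and capitals mark the seed, bases 2 to 8. The 5p strand lies at chr16:84714143-84714165 and the 3p strand at chr16:84714182-84714202, both on the plus strand.
mmu-miR-155-5p: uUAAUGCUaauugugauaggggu
mmu-miR-155-3p: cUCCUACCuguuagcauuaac

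The transcript of the targeted locus, Mir155hg, measured 3.51, 3.89 and 4.45 in KO and 7.69, 6.59 and 8.21 in WT, so no array went against its genotype label. Replicate numbers split the arrays by sex-linked transcripts. Xist measured 13.35 and 13.08 on KO and WT replicate 1 and 5.94 and 5.66 on KO and WT replicate 2, and the Y-linked gene Uty 4.27 and 4.51 on the replicate 1 arrays and 6.55 and 6.26 on the replicate 2 arrays. Both replicate 3 arrays carried both kinds, with Xist at 12.59 in KO and 12.64 in WT and Uty at 6.14 in KO and 5.72 in WT, which goes against 1 mouse per array. KO replicate 1 stood apart on the first principal component, where it scored -41.3 and the other 5 arrays scored between -14.6 and 26.1. Differences of the family genes are therefore also given without the replicate 3 arrays, and within each number. The T cell genes Cd3d, Cd3g and Cd4 averaged 13.25, 12.42 and 9.06 over the 6 arrays. Cd8a averaged 5.86, the neutrophil marker S100a8 3.56 and the NK cell marker Ncr1 3.88, each the lowest of its list. Other markers of those lists were brighter, with Cd8b1 at 7.46, Crtam at 7.77, Klrd1 at 6.57 and Csf3r at 4.85. The summed level of 9 CD4 T cell markers was 101.3 to 103.2 in KO and 98.0 to 101.8 in WT, and that of 6 B cell markers 35.8 to 38.2 in KO and 35.4 to 39.5 in WT. A sum can hide single markers. The B cell marker Ms4a1 measured 6.39, 7.85 and 6.45 in KO and 8.02, 8.22 and 6.55 in WT. Its difference was -0.70, and that of the B cell marker Cd79b was 0.15. In 9 marker lists 0 genes passed the limma test, and 2 of 31 markers tested had an unadjusted p under 0.05, where 7.43% of all genes had one. These were the CD4 T cell markers Cd28 and Zbtb7b, higher in KO by 0.67 and 0.48. Their part in the results was not tested.

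Of the 9 genes, 0 passed the test across all genes (limma with Benjamini-Hochberg adjustment over 9295 genes, adjusted p under 0.05), as was the case for 0% of the genes tested. At an unadjusted limma p under 0.05, 3 of the 9 were found, Pmaip1, Bcl2l11 and Mcl1, all higher in KO, where 7.43% of all genes passed in either direction. The median difference of the 9 was 0.11, against -0.00359 over all genes tested, with 5 higher and 4 lower in KO, where 49.2% of all genes were higher. The arrays of the genotypes did not overlap in 4 of the 9 genes, against 12.8% of all genes. Pmaip1, Bcl2l11 and Mcl1 lay above WT on every KO array, which 5.86% of all genes did, and Bak1 lay below, which 6.92% did.

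**Figure D1:**
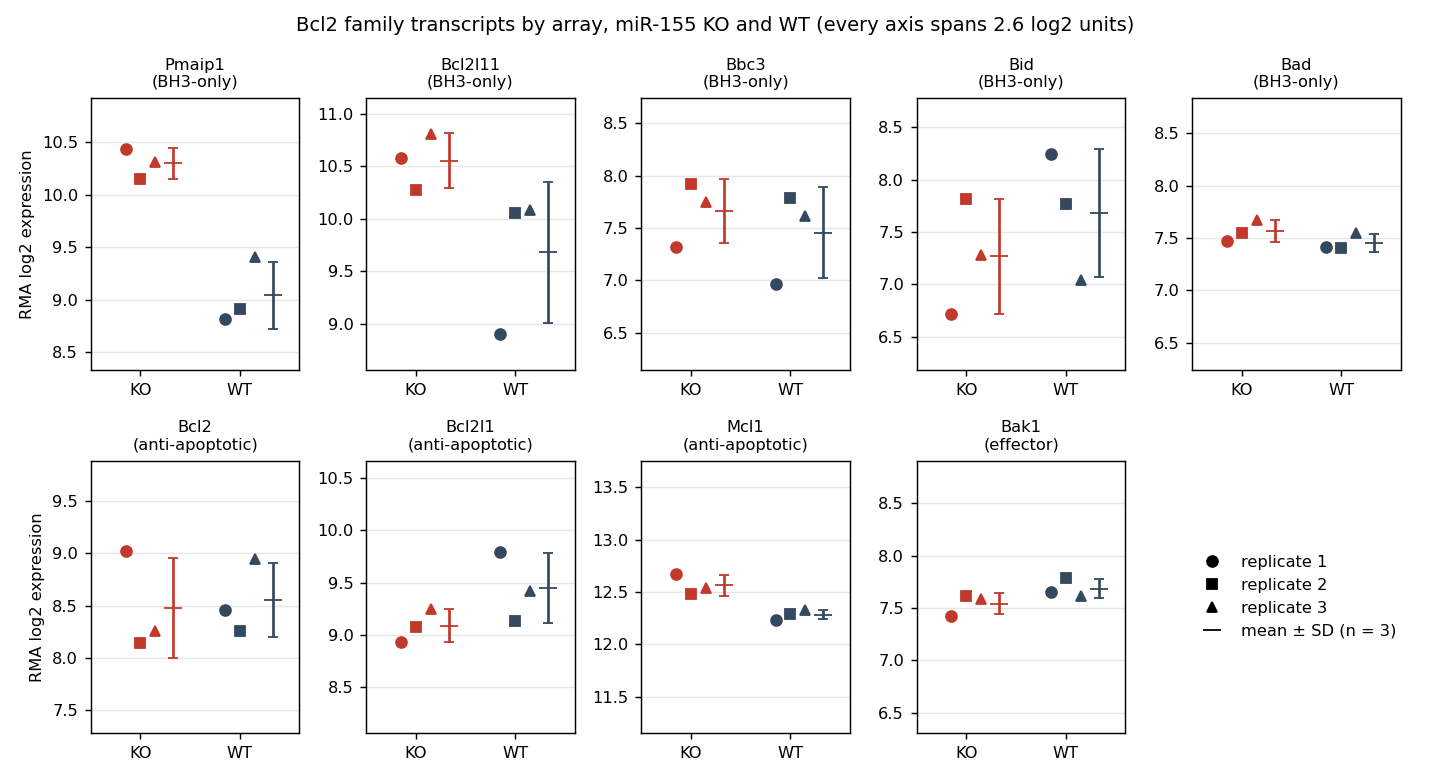
RMA log2 expression of the 9 Bcl2 family genes on each array, with KO left of WT, the replicate number as the symbol and the mean ± SD beside each group (n = 3); each axis spans the same number of log2 units. Pmaip1 lies between 10.15 and 10.44 in KO and between 8.81 and 9.41 in WT, while the genotypes overlap for Bcl2, Bid, Bad, Bbc3 and Bcl2l1.

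Pmaip1, which encodes the Mcl-1 binding protein Noxa, had the widest gap between the genotypes of the 9 genes. Its 1 probe set measured 10.44, 10.15 and 10.31 in KO and 8.81, 8.91 and 9.41 in WT. All 3 KO arrays were above all 3 WT arrays, and the WT array nearest to them was replicate 3. The means were 10.30 ± 0.15 in KO and 9.04 ± 0.32 in WT (SD, n = 3 each), a difference of 1.26 ± 0.19 (SE), or 2.39-fold, with a 95% interval of 0.81 to 1.71. By limma p it ranked 6 among the 9295 genes, yet its limma adjusted p was 0.545. The exact two-sided permutation test gave p = 0.1, and with 3 arrays per genotype it cannot go lower. These are RNA levels of whole cultures, so a change in the share of cells with the transcript cannot be told apart from a change per cell. A log2 difference of at least 1 in either direction was seen in 1.15% of genes. Pmaip1 was the 1 such gene of the 9.

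The Pmaip1 difference did not hang on a single array. It was 1.63 between the replicate 1 arrays, 1.24 between the replicate 2 arrays and 0.90 between the replicate 3 arrays, in each case higher in KO. Without both replicate 3 arrays it was 1.43, and with 1 array left out in turn it ran from 1.14 to 1.44. The gene lies at chr18:66458604-66465558 in RefSeq (GRCm38.p6).

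Bcl2l11, the gene of the death activator Bim, was higher in KO by all 5 of its probe sets, but the size rested largely on 1 WT array. The brightest probe set measured 10.58, 10.28 and 10.81 in KO and 8.90, 10.05 and 10.08 in WT. The KO arrays lay above the WT arrays, narrowly for KO replicate 2, and WT replicate 1 lay more than 1 log2 unit below the other WT arrays. The means were 10.55 ± 0.26 in KO and 9.68 ± 0.67 in WT (SD, n = 3 each), a difference of 0.87 ± 0.34 (SE) or 1.83-fold (limma adjusted p = 0.631). Without WT replicate 1 the difference was 0.49, and without both replicate 3 arrays it was 0.95. The gene kept an unadjusted limma p under 0.05 without WT replicate 1. It lost it without both replicate 3 arrays, without KO replicate 1 and without KO replicate 3.

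Within numbers the Bcl2l11 difference was 1.67 for replicate 1, 0.23 for replicate 2 and 0.72 for replicate 3. The 4 further probe sets differed by 0.42 to 0.85, and in each of them the genotypes overlapped. The dimmest measured 7.85, 6.28 and 6.80 in KO and 5.82, 6.42 and 6.49 in WT, so KO replicate 2 lay below WT replicates 2 and 3. Of the 5 probe sets, 2 had an unadjusted limma p under 0.05, where 6.55% of all 22626 probe sets had one. Probe sets of a gene share its RNA and are not separate replicates.

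The other BH3-only genes showed no difference beyond the spread. Bbc3, which encodes the p53-inducible sensor Puma, measured 7.32, 7.92 and 7.75 in KO and 6.97, 7.78 and 7.62 in WT. Replicate 1 was the lowest array in both genotypes, and the groups overlapped. The difference was 0.20 with a 95% interval of -0.41 to 0.82 (limma adjusted p = 0.789). It was -0.04 without WT replicate 1, 0.08 without KO replicate 2, 0.38 without KO replicate 1, 0.37 without WT replicate 2 and 0.24 without both replicate 3 arrays. Within numbers it was 0.35, 0.13 and 0.13 for replicates 1, 2 and 3.

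Bid, whose protein is cut by caspase-8 and links death receptors to mitochondria, measured 6.71, 7.81 and 7.28 in KO and 8.25, 7.77 and 7.04 in WT. KO replicate 1 was the lowest and WT replicate 1 the highest of the 6 arrays, and the groups overlapped. The difference of -0.41 had a 95% interval of -1.33 to 0.50 (limma adjusted p = 0.709). It was -1.53 between the replicate 1 arrays but 0.05 and 0.25 between those of replicates 2 and 3. It was -0.13 without WT replicate 1, -0.14 without KO replicate 1, -0.69 without KO replicate 2, -0.74 without WT replicate 3 and -0.74 without both replicate 3 arrays, and a second probe set differed by -0.27.

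Bad, a sensor held inactive by growth factor signalling, had the smallest spread of the BH3-only genes. It measured 7.47, 7.55 and 7.67 in KO and 7.41, 7.40 and 7.55 in WT, with overlapping groups. The difference was 0.11 with a 95% interval of -0.16 to 0.39 (limma adjusted p = 0.741), and it was 0.06 without KO replicate 3 and 0.10 without both replicate 3 arrays. Within numbers it was 0.06, 0.15 and 0.13 for replicates 1, 2 and 3, and a second probe set differed by 0.05.

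**Figure D2:**
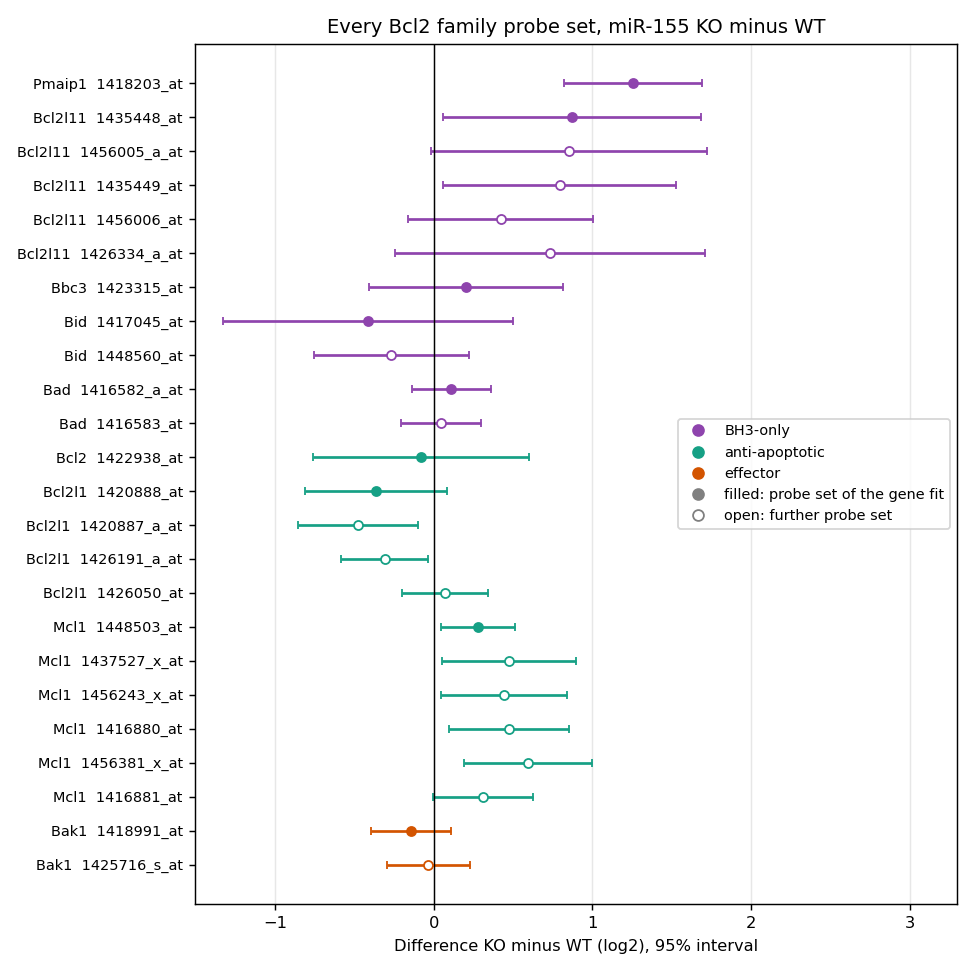
Difference KO minus WT on the log2 scale with its 95% limma interval for each of the 24 probe sets, coloured by role; filled points are the probe sets used in the gene fit and open points further probe sets. All 5 Bcl2l11 and all 6 Mcl1 probe sets lie above 0, and 3 of the 4 Bcl2l1 probe sets lie below it.

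Among the protective genes, the Mcl1 mean was higher in KO and those of Bcl2l1 and Bcl2 were lower, none of them past the test across all genes. Mcl1 encodes a short-lived protein on which the survival of T cells depends and to which Noxa binds. Its brightest probe set measured 12.67, 12.48 and 12.53 in KO and 12.23, 12.29 and 12.32 in WT. The groups did not overlap, and the spread within each was small. The means were 12.56 ± 0.10 in KO and 12.28 ± 0.04 in WT (SD, n = 3 each), a difference of 0.28 ± 0.11 (SE), or 1.21-fold (limma adjusted p = 0.631).

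All 6 Mcl1 probe sets were higher on every KO array than on any WT array, against 5.89% of all probe sets, and 5 had an unadjusted limma p under 0.05, where 3.22% of all probe sets had one on the higher side. Their differences ran from 0.28 to 0.60, with the smallest in the brightest probe set. The probe set with the widest gap, an x_at set, measured 11.19, 10.93 and 11.04 in KO and 10.17, 10.45 and 10.75 in WT. In all 6 the replicate 1 arrays differed most, by 0.44 to 1.02, and the replicate 3 arrays differed by 0.11 to 0.29. The names of 3 of the 6 end in x_at, which Affymetrix gives to probe sets that may also bind other transcripts. Without both replicate 3 arrays the brightest probe set differed by 0.31, with 1 array left out it had an unadjusted p under 0.05 in 0 of 6 fits, and with the mean of all 6 probe sets the gene differed by 0.43.

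Bcl2l1, the gene of the protective protein Bcl-xL, was lower in KO by its 3 brighter probe sets. The brightest measured 8.93, 9.08 and 9.25 in KO and 9.80, 9.13 and 9.42 in WT. KO replicate 3 lay above WT replicate 2, so the groups overlapped, and WT replicate 1 was the highest array. The means were 9.09 ± 0.16 in KO and 9.45 ± 0.33 in WT (SD, n = 3 each), a difference of -0.36 ± 0.19 (SE) with a 95% interval of -0.83 to 0.10 (limma adjusted p = 0.631). It was -0.19 without WT replicate 1, -0.46 without both replicate 3 arrays and 0.00484 with estimated array weights.

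Groups did not overlap in the next 2 Bcl2l1 probe sets, where 5.83% of all probe sets had every KO array below WT. The brighter of them measured 6.22, 6.29 and 6.26 in KO and 7.07, 6.57 and 6.56 in WT, a difference of -0.48, and the other differed by -0.31. Both had an unadjusted limma p under 0.05, which 3.33% of probe sets had on the lower side. The dimmest probe set measured 3.13 to 3.46 on the 6 arrays, below the 4.72 of the dimmest gene tested, and differed by 0.07. Within every number the 3 brighter probe sets were lower in KO, with differences of -0.86 to -0.05.

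Bcl2, the founding member of the family, measured 9.03, 8.14 and 8.26 in KO and 8.46, 8.26 and 8.95 in WT. KO replicate 1 was the highest and KO replicate 2 the lowest of the 6 arrays. The means were 8.48 ± 0.48 in KO and 8.55 ± 0.36 in WT (SD, n = 3 each), a difference of -0.08 with a 95% interval of -0.76 to 0.61 (limma adjusted p = 0.938). Within numbers it ran from 0.57 for replicate 1 to -0.69 for replicate 3, and without both replicate 3 arrays it was 0.23.

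Bak1, which encodes a pore former, measured 7.43, 7.61 and 7.59 in KO and 7.65, 7.79 and 7.61 in WT. Every KO array lay below every WT array, but KO replicate 2 and WT replicate 3 were nearly equal. The difference of -0.14 had a 95% interval of -0.42 to 0.14 (limma adjusted p = 0.683), and it was -0.08 without KO replicate 1, -0.09 without WT replicate 2 and -0.20 without both replicate 3 arrays. Within numbers it was -0.23, -0.18 and -0.03 for replicates 1, 2 and 3. A second, dim probe set measured 4.62 to 4.90 in KO and 4.80 to 4.85 in WT.

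**Figure D3:**
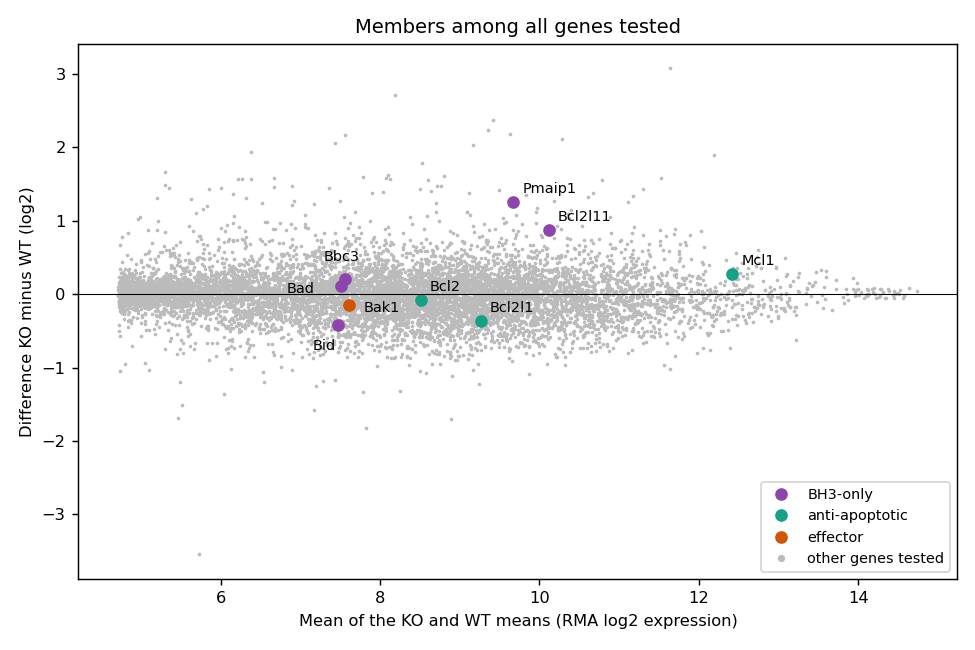
Difference KO minus WT (log2) against mean RMA log2 expression for the 9295 genes tested (grey), with the 9 Bcl2 family genes coloured by role. Pmaip1 (1.26) and Bcl2l11 (0.87) lie near the upper edge of the cloud, and the other 7 lie between -0.41 and 0.28.

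Of the 24 probe sets together, 16 were higher in KO and 8 were lower, where 50.4% of all probe sets were higher. Their median difference was 0.24, against 0.00216 over all probe sets. An unadjusted limma p under 0.05 was found for 10, of which 8 were higher and 2 lower, where 6.55% of all probe sets had one, 3.22% higher and 3.33% lower. An adjusted p under 0.05 was found for 0. The groups did not overlap in 11, against 11.7% of all probe sets. Because Mcl1 and Bcl2l11 supply 11 of the 24, these counts weigh both genes most. KO replicate 1 was the highest or the lowest array in 18 of the 24 probe sets, and so was WT replicate 1. The share over all probe sets was not computed, so these counts cannot be read as a trait of the family.

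**Figure D4:**
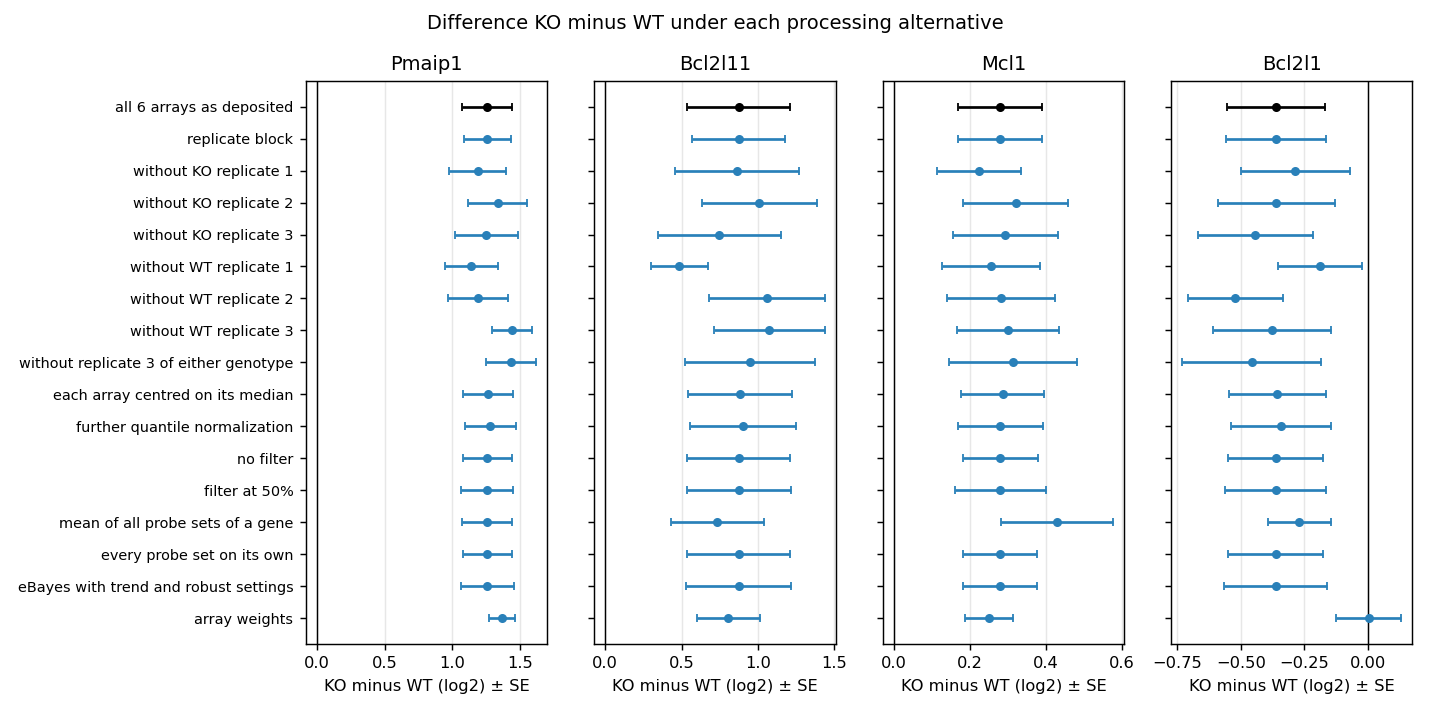
Difference KO minus WT (log2) ± SE of Pmaip1, Bcl2l11, Mcl1 and Bcl2l1 with all 6 arrays as deposited (black) and under 16 alternatives (blue). Pmaip1 stays between 1.14 and 1.44, Bcl2l11 is smallest without WT replicate 1 (0.49), and Bcl2l1 is at 0.00484 with array weights.

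The genes whose level across the 6 arrays was most like that of Pmaip1 were Muc1, Glipr2, Tab2, Tha1 and Lat2, with Pearson correlations of 0.999, 0.994, 0.985, 0.982 and 0.981. Since all 5 were picked from 9295 genes over 6 arrays that include the genotype gap, the values are a description only. Lat2, an adaptor protein gene, measured 6.68, 6.02 and 6.40 in KO and 4.86, 5.09 and 5.66 in WT. Tab2, an adaptor of NF-kappa B signalling, measured 11.41, 11.09 and 11.28 in KO and 10.53, 10.49 and 10.87 in WT. In both, as in Pmaip1, KO replicate 1 was highest in KO and replicate 3 highest in WT.

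Genes around the Bcl2 family were counted from lists, again with 0 members past the limma test over all genes in any list, and counts at an unadjusted p under 0.05 stand against 3.57% of all genes on the higher and 3.86% on the lower side. Of 8 other family members tested, 4 were higher and 4 lower in KO, and 0 had an unadjusted limma p under 0.05. Bcl2l14 had the smallest p, with 8.37, 7.60 and 8.09 in KO and 7.62, 7.35 and 7.70 in WT, a difference of 0.46 (0.29 without KO replicate 1). It had an unadjusted limma p under 0.05 in 4 of the 16 alternatives. The replicate block was among them, and there 9.88% of all genes had one. The median of the list was -0.05.

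Downstream of the mitochondria, 3 of 16 genes of the apoptosome, caspases and caspase inhibitors had an unadjusted limma p under 0.05, all higher in KO. Birc3, which encodes the ubiquitin ligase cIAP2, measured 12.13, 11.33 and 11.54 in KO and 11.04, 10.98 and 11.16 in WT, a difference of 0.60 (0.37 without KO replicate 1). Birc2, the gene of the related cIAP1, measured 10.20, 9.61 and 9.91 in KO and 9.17, 9.37 and 9.59 in WT, a difference of 0.53. Casp6, the gene of an executioner caspase, differed by 0.59. The groups did not overlap in 4 of the 16, these 3 and Birc5, which was lower in KO, against 12.8% of all genes, and the median of the 16 was 0.02. Birc5 was named after its values were seen.

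Noxa and Puma are textbook p53 targets, and the p53 pathway list held 19 tested genes, with Trp53 itself not analysed here. Of these 12 were higher in KO and 7 were lower, and the median was 0.04. Only Plk2, a stress-responsive kinase gene, had an unadjusted limma p under 0.05. It measured 8.17, 8.02 and 7.57 in KO and 9.12, 8.68 and 8.48 in WT, a difference of -0.84. The groups did not overlap in 2 of the 19, Plk2 and Mdm2, against 12.8% of all genes. Mdm2 measured 10.02, 9.27 and 9.27 in KO and 9.16, 8.93 and 8.99 in WT, a difference of 0.49. Mdm2 was named after its values were seen, and a part of p53 was not tested.

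Among 14 tested transcription factors reported to act on genes of the family, 9 were higher in KO and 5 were lower, the median was 0.23, and 2 had an unadjusted limma p under 0.05. Hif1a, the oxygen-responsive factor, measured 13.25, 13.32 and 13.41 in KO and 12.78, 12.77 and 12.97 in WT, without overlap. Bcl6, a repressor, measured 8.55, 8.27 and 8.95 in KO and 5.65, 7.69 and 7.63 in WT, and its difference of 1.59 was 0.93 without WT replicate 1. Foxo1 and Foxo3, forkhead factors known to drive Bim, differed by 0.24 and -0.10 with overlapping groups, and were named after their values were seen.

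Mcl-1 protein is short-lived, and of 9 tested genes of its turnover 6 were higher in KO and 3 were lower, and the median was 0.03. Fbxw7, the substrate receptor of a ubiquitin ligase that marks Mcl-1 for breakdown, measured 9.48, 9.51 and 9.89 in KO and 8.70, 8.85 and 9.01 in WT. Its difference of 0.78 ± 0.16 (SE) was the 1 of this list with an unadjusted limma p under 0.05 (limma adjusted p = 0.631). The groups did not overlap in 3 of the 9, against 12.8% of all genes. These were Fbxw7, Tpt1, higher in KO by 0.09, and Cdk1, which differed by -0.77. Tpt1 and Cdk1 were named after their values were seen. Protein was not measured.

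Cytokine receptors that sustain Bcl2 family expression were tested for 6 genes, of which 5 were higher in KO and 1 was lower, and the median was 0.35. Il7r, the receptor for interleukin 7, measured 12.48, 10.91 and 12.16 in KO and 10.02, 10.20 and 11.29 in WT. KO replicate 2 lay below WT replicate 3, and the difference was 1.34, with a range of 1.03 without KO replicate 1 to 1.81 without KO replicate 2. Il21r, the interleukin 21 receptor gene, differed by 0.43. Both Il7r and Il21r had an unadjusted limma p under 0.05. The groups did not overlap in 2 of the 6, Il21r and Il4ra, against 12.8% of all genes. Il4ra was higher in KO by 0.46 and was named after its values were seen.

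Of the 9 genes named from these lists for an unadjusted limma p under 0.05, 3 kept one with any 1 array left out, namely Plk2, Hif1a and Fbxw7. Without both replicate 3 arrays 6 kept one, and Birc3, Birc2 and Bcl6, with differences of 0.72, 0.64 and 1.73, did not. These values are from the brightest probe set of each gene. With the mean of all probe sets of a gene, Birc3 differed by 0.63 and no longer had an unadjusted limma p under 0.05. Bcl6, which then differed by 1.10, and the rest of the 9 kept one.

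Promoter windows of the family, 250 bases before to 50 after a start site, were searched on both strands for 4 motifs in the RefSeq table (GRCm38.p6), which held 15 windows of 9 of the genes, Bax included. The Pmaip1 promoter was not analysed here. The STAT motif TTCNNNGAA and the cyclic AMP element TGACGTCA were in 0 of 15 windows, and in 8.30% and 1.79% of all 32851 windows. The forkhead motif GTAAACA was in 2 of 15 windows against 3.65%, and the E-box CACGTG in 2 of 15 against 7.15%. The motifs do not overlap each other. Both windows with the forkhead letters are printed, since they belong to the BH3-only genes Bcl2l11 and Bbc3, of which the first was higher in KO at an unadjusted p and the second was not. A match is a run of letters and not a binding site. Capitals mark the match, which in Bbc3 is on the opposite strand. The Bcl2l11 window is chr2:128125788-128126087 and the Bbc3 window chr7:16310011-16310310, both on the plus strand.
Bcl2l11: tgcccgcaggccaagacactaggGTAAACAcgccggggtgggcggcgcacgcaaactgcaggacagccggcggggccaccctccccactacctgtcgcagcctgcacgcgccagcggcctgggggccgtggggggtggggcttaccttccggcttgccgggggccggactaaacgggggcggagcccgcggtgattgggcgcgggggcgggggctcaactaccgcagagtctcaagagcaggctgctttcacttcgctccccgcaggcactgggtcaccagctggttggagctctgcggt
Bbc3: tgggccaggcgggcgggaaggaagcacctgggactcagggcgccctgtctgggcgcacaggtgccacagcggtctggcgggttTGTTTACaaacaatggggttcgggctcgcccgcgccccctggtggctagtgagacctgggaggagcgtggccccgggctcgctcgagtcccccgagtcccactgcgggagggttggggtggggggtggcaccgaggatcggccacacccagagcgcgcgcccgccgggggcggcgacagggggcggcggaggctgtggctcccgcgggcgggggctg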

How the data were processed

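Expression was measured on 6 arrays, 3 from miR-155 KO and 3 from WT CD4 T cells. Per the submitters' processing notes, the authors used RMA from the affy package (no version is stated) to make the deposited log2 values. RMA equalises the array distributions and compresses differences near background. No detection calls were used. Precision is limited by having 3 arrays per genotype. The table held 22690 probe sets, 64 of them controls. GEO's platform annotation gave 20380 of the others 1 symbol and 691 several. A gene was represented by its brightest probe set, and the dimmest 25% of genes (3098 of 12393) were left untested.

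The genotypes were compared in R 4.3.3 with limma 3.58.1 (two-sided, Benjamini-Hochberg adjustment over 9295 genes). Every probe set was also fitted in a fit over all 22626 that were not controls, from which the values for further probe sets come. Intervals are 95% limma intervals. Single values had an exact permutation test. The code was tested on simulated data. The alternatives were the replicate block, arrays left out, other normalizations, filters, probe set rules, eBayes settings and array weights (statmod 1.5.0). The genes and lists were chosen with earlier results of these data known. Named were all members, Mir155hg, up to 4 genes per list with an unadjusted p under 0.05 (or the 1 with the smallest), and the 5 most like Pmaip1.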

Additional observations from a re-analysis of the deposited data

How the results depend on the processing

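Across the 16 alternatives, 26 named genes gave 412 differences, of which 383 kept their direction and their side of the threshold, 9 changed sign and 20, all with array weights, newly passed. The Pmaip1 difference ran from 1.14 without WT replicate 1 to 1.44 without WT replicate 3. The number of genes past an adjusted limma p under 0.05 was 0 in all alternatives but array weights, which gave 3575. That fit put weights of 5.55 on KO replicate 3 and 5.04 on WT replicate 2 and 0.27 to 0.58 on the other 4 arrays, so its calls rest on 2 arrays, and 50.7% of genes had an unadjusted p under 0.05 (4711 genes). With it Pmaip1 was at 1.37 (limma adjusted p = 0.00961), Bcl2l11, Mcl1 and Bad also passed, and Bcl2l1 turned to 0.00484. The number of genes at an unadjusted p under 0.05 was 691 with all arrays. Among the fits with arrays left out it was lowest without WT replicate 1 (276) and highest without KO replicate 2 (1542). It was 445 without both replicate 3 arrays, and 1482 of 22626 when every probe set was fitted. Of the genes of the family, Bbc3 ran from -0.040 to 0.38 and Bcl2 from -0.35 to 0.12 with 1 array left out, as did the Y-linked gene Uty from -0.33 to 0.85, and Bcl2 was at 0.23 without both replicate 3 arrays. The cause of these changes was not tested.

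Same-numbered arrays were alike in sex-linked transcripts, but did not deviate together across genes in every pair (correlations of -0.04, 0.64 and 0.40). For arrays of unlike number these correlations ran from -0.69 to 0.39. With 3 arrays per genotype they cannot settle whether the numbers are pairs. The main fit did not take the numbers as pairs. With the replicate block, 918 genes had an unadjusted p under 0.05 and 0 passed, Pmaip1 was at 1.26 (limma adjusted p = 0.478), and Mcl1 no longer had an unadjusted p under 0.05. Mcl1 had one in 7 of the 16 alternatives, and Pmaip1 in all 16. RMA values near background are compressed, which limits what the dimmest probe sets can show.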
